A study of Mus musculus with 3 samples.

Results

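This account compares bone marrow mesenchymal stem cells (MSCs) after 21 days of osteogenic culture with the same kind of cells at day 0, on 1 array each. Genes were kept by Feature Extraction's mark for a spot well above background. Of 20279 genes with a named probe on the array, 13958 entered the comparison: 12387 were above background on both arrays and are called measured, 1029 were above background at day 21 only, and 542 at day 0 only. Another 6289 genes were dim on both arrays, and 32 were set aside because the probe standing for the gene was dim while another of its probes was not. The cells were primary MSCs from the bone marrow of male mice aged 8 weeks, grown in αMEM with serum and antibiotics. The day 21 culture had also received ascorbic acid (50 µg/mL) and beta-glycerophosphate (10 mM), and the day 0 cells had not yet been induced. No array holds cells cultured for 21 days without these agents. Time in culture and the agents therefore cannot be told apart in any result below. The series holds 3 arrays in all, the last being a culture at day 3 with the same agents, whose values are set beside the others in places. Mouse strain, the number of animals and whether the arrays share a culture are not given in the sources used here.

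MSCs are adherent stromal cells that can become bone-forming osteoblasts, cartilage cells or fat cells. Ascorbic acid lets collagen be hydroxylated and secreted, beta-glycerophosphate supplies phosphate for mineral, and the osteoblast transcription factors Runx2 and Sp7 stand opposite the adipocyte factors Pparg and Cebpa in the choice between bone and fat. The culture is a mixed population, so in every result below fewer cells of a type and less RNA per cell cannot be told apart.

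Each group had 1 array, so no difference has a replicate check and no test or p-value is given. Values are log2 differences, day 21 minus day 0, of probe intensity scaled to each array's 75th percentile, and an intensity is the unscaled brightness of a probe, which is not comparable between genes. The error after ± is the SD from Feature Extraction's spot error model. It was 0.20 at the median of measured genes, and spots of probes printed 10 times gave 0.18, both for the array only. A gene called higher or lower differed by at least 2-fold, and a gene above background on 1 array has a bound, given as an at-least fold. Both arrays lay on 1 slide; the day 3 array lay on another, so that slide and day cannot be told apart for it.

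A 2-fold or larger rise by day 21 was found for 12.8% of measured genes (1582) and a fall of that size for 16.8% (2078). At 4-fold the shares were 5.41% higher and 4.2% lower (670 and 520 genes), and at 8-fold 312 genes were higher and 181 lower. Higher genes made up 43.2% of the 2-fold calls but 79.2% of those past 16-fold. With spike-in scaling higher genes made up 29.1% of the 2-fold calls, and with the 75th percentile of probes detected on both arrays 53.4%. Judged by bounds, 2.81% of all named genes (570) rose 2-fold or more and 1.95% (396) fell as much. The median over all measured genes was -0.21, their lower and upper quartiles were -0.75 and 0.40, and 70.5% stayed within 2-fold.

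**Figure D1:**
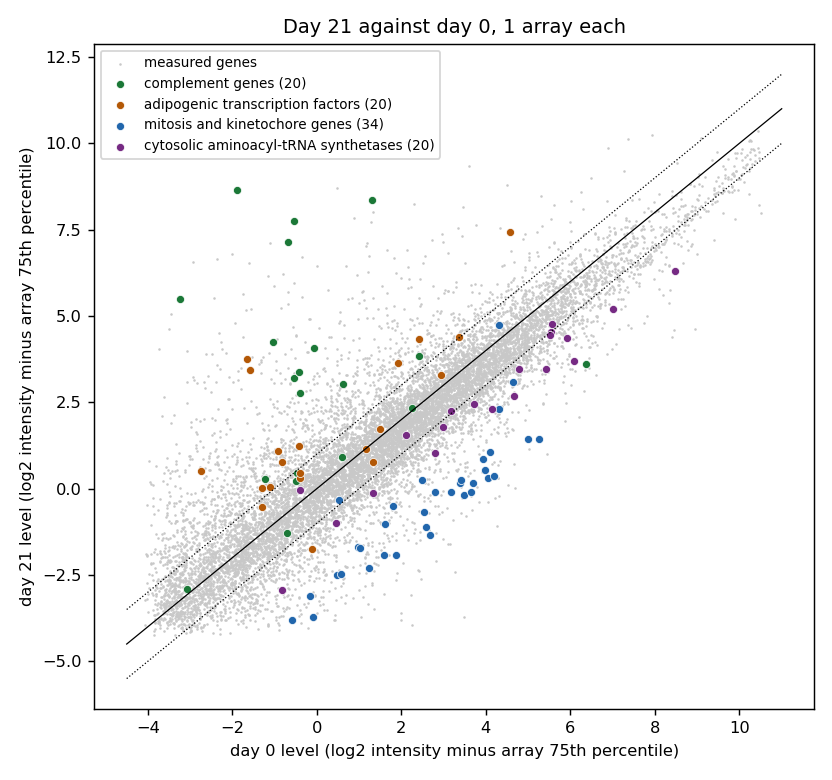
Log2 level at day 0 (x) and day 21 (y) of the 12387 measured genes, each intensity relative to its array's 75th percentile; colours mark 4 gene groups with the number measured, the solid line is equality and the dotted lines are 2-fold. The complement genes reach far above the line and the mitosis genes lie below it.

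The share of lower genes was nearly even over the range of brightness, and that of higher genes was not. In the dimmest of 4 equal bins of measured genes by mean signal, 16.3% were higher and 16.4% lower. In the brightest bin 7.98% rose and 18% fell, around a median of -0.37 against -0.09 in the dimmest. Scaling by 1 value per array cannot remove a drift with brightness, and its source was not tested. With quantile normalization the median of ribosomal protein genes went from -0.94 to -0.16 and that of smooth muscle genes from -2.0 to -1.37. That of mitosis genes went from -3.22 to -3.16.

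**Figure D2:**
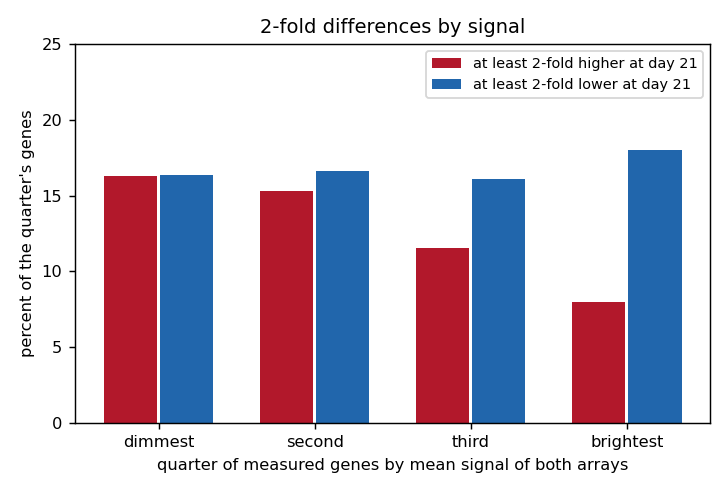
Percent of genes at least 2-fold higher (red) and lower (blue) at day 21 in 4 equal bins of the 12387 measured genes, ordered by the mean signal of both arrays. The lower share runs between 16.1% and 18%, while the higher share goes from 16.3% in the dimmest to 7.98% in the brightest bin.

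The osteoblast label was met in part. The probe of Col1a1, which encodes a chain of the main bone collagen, stayed near its bright starting level, from 61666 to 49263, a difference of -0.47 ± 0.20. Osteopontin, Spp1, a phosphorylated glycoprotein of bone matrix, went from 625 to 4613, a difference of 2.74 ± 0.20. Osteomodulin, Omd, a keratan sulfate proteoglycan of bone, went from 47.3 to 2002, a difference of 5.26 ± 0.22. Both noncollagenous proteins were thus well above their day 0 brightness. Bone sialoprotein, Ibsp, a nucleator of mineral, had an intensity of 2.53 at day 0, where it was not well above background, 78.2 at day 3 and 719.6 at day 21, at least 63.7-fold higher. The endopeptidase Phex, mutated in a form of inherited rickets, was at least 11.5-fold higher, and the osteocyte protein Mepe differed by 2.50. The osteocalcin family genes Bglap2 (3.58) and Bglap3 (3.56) were higher too.

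Of 12 measured bone matrix proteins, 7 rose and 0 fell, around a median of 2.62, and 3 more were at least 2-fold higher by a bound. The members under 2-fold were Col1a1, Col1a2 (0.28), Sparc (-0.11), biglycan Bgn (-0.09) and periostin Postn (0.91), the collagens and the bright general matrix proteins. Ifitm5, a small membrane protein largely restricted to osteoblasts, was above background at day 21 only, at an intensity of 12.3 against 4.57, a bound of at least 1.09-fold.

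Regulators of the lineage did not share this pattern. Among 13 measured osteoblast transcription factors 2 were higher and 2 lower (median -0.40), near the shares over all measured genes (12.8% and 16.8%). Runx2 differed by -0.37 ± 0.39 and Dlx5 by -0.93, and Sp7 was not well above background on either array. The higher members were Msx1 (1.34) and Zfp521 (1.42), a zinc finger protein known to restrain Runx2. Msx2, a homeobox gene of skull bone, went from 2008 to 292, a difference of -2.93 ± 0.20. Sox11, which supports early progenitors, went from an intensity of 449 to 3.55, below background, and was at least 60.4-fold lower.

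Mineral handling was split. Tissue-nonspecific alkaline phosphatase, Alpl, which releases phosphate, had intensities of 2.91 at day 0 and 328 at day 21, at least 29.1-fold higher. Sphingomyelinase Smpd3, needed for matrix mineralisation, differed by 2.33, and the vitamin D receptor Vdr by 1.98. The phosphate importer Slc20a1 went from 10308 to 1063, a difference of -3.42 ± 0.20, while its relative Slc20a2 was at 0.19. The pyrophosphate exporter Ank (-1.12) and the ectonucleotidase Enpp3 (-1.27) were lower, though Enpp3 was at -0.35 under normexp background correction. Phospho1, a phosphatase of matrix vesicles, was not above background on either array.

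Signals from bone cells to osteoclasts moved separately. RANKL, Tnfsf11, which drives osteoclast formation, went from 19.2 to 112, a difference of 2.40 ± 0.26. Its decoy receptor osteoprotegerin, Tnfrsf11b, went from 1341 to 752, a difference of -0.98 ± 0.20. Of the ligands of the colony-stimulating factor receptor, Il34 was higher by 4.75. Csf1 was at -1.29 by the probe used and at 0.56 by the median over its probes, which ran up to 0.57. Of 7 measured osteoclast markers 1 was higher and 1 lower, with a median of -0.16. The higher one was Acp5, an acid phosphatase (3.57), and Ctsk was at 0.67. The other 5 lay below 0, down to -1.54. Calcr, Dcstamp, Mmp9 and Atp6v0d2 were not above background on either array.

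The day 21 culture carried a broad adipocyte programme. Cebpa, the transcription factor that with Pparg sustains the fat cell state, went from 57.1 to 2072, a difference of 5.03 ± 0.22. Pparg, the nuclear receptor that commits cells to fat, went from 927 to 3881, a difference of 1.92 ± 0.07, from a level that was already clear at day 0 and stood at 811 at day 3. Nr1h3, the oxysterol receptor LXR alpha, differed by 5.40, and the sugar-sensing factor Mlxipl by 3.26. In the list of adipogenic transcription factors 12 of 20 measured members rose and 1 fell, around a median of 1.23. The lower one was Gata3 (-1.63), known to hold preadipocytes back. Early and late factors both rose, with Cebpd at 2.84, Cebpb at 1.03, Zfp423 at 1.59 and Ebf1 at 1.72. Klf15, another late factor, was above background at day 21 only and at least 23.1-fold higher.

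RNA of lipid droplet coat proteins moved in different directions. Perilipin 1, Plin1, the coat protein of large droplets in fat cells, had intensities of 6.39 at day 0, 44.5 at day 3 and 4297 at day 21, at least 380.5-fold higher. Plin4 went from 249.7 to 5511, a difference of 4.32 ± 0.20. Perilipin 2, Plin2, which coats small droplets in most cell types, went the other way, from 8403 to 3578, a difference of -1.38 ± 0.20, and Plin3 stayed at 0.19. The lipolysis inhibitor G0s2 (4.67) and the melanocortin receptor accessory protein Mrap (7.78) were among 6 of 14 measured members of the droplet list that were higher, against 1 lower. Another 6 rose by a bound, Cidec, Cidea and Plin5 among them. The caveolar genes Cav1 (0.12) and Cavin1 (0.21), abundant in fibroblasts too, stayed within 2-fold.

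Enzymes known from fat cells that build and break down triglyceride were higher. Glycerol-3-phosphate dehydrogenase Gpd1 was at least 442-fold higher, at an intensity of 4994 against 3.12. Dgat2, which makes the last bond of triglyceride, went from 588 to 5510.2, a difference of 3.08 ± 0.20, and Agpat2 differed by 2.05. Of the lipases, Pnpla2 (adipose triglyceride lipase) was at 3.61 and hormone-sensitive lipase Lipe at least 33.1-fold higher, and carboxylesterase Ces1d at least 31.2-fold. In this list 7 of 18 measured members were higher, 1 was lower and 7 rose by a bound. The relatives Agpat3 (0.22), Agpat4 (0.01), Agpat5 (-0.19), Gpat4 (-0.28) and Lpin2 (-0.57), stayed within 2-fold. The lower member was the intestinal acyltransferase Mogat2, from 1673 to 36, a difference of -5.68 ± 0.23, whereas Mogat1 was at least 4.48-fold higher.

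Related carriers and transporters moved in opposite directions. The adipocyte fatty acid carrier Fabp4 went from 241 to 80292, a difference of 8.23 ± 0.20. The muscle form Fabp3 went from 3335 to 236, a difference of -3.97 ± 0.20, and Fabp5 differed by -1.30. The insulin-responsive glucose transporter Slc2a4 went from 68.8 to 2514, a difference of 5.05 ± 0.08, whereas the general transporter Slc2a1 was at -1.15. Acyl-CoA synthetase Acsl1 was higher (4.35) and Acsl3 lower (-1.06). The scavenger receptor Cd36, a fatty acid importer, was at least 56.5-fold higher.

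In fatty acid synthesis 5 of 17 measured genes rose and 2 fell, around a median of -0.04. The shares over all measured genes were 12.8% and 16.8%. Stearoyl-CoA desaturase Scd1 (4.12), Acss2 (3.15, other probe 2.12), Acacb (2.62) and fatty acid synthase Fasn (1.82) were higher, with Acly (-0.38), Acaca (0.34) and Elovl6 (-0.65) within 2-fold. The polyunsaturated desaturases Fads2 (-1.68) and Fads3 (-1.96) were lower. Thrsp, a small nuclear protein of lipogenic tissue, was at least 1448-fold higher. In fatty acid oxidation 9 of 22 were higher and 0 lower, led by the pyruvate dehydrogenase kinase Pdk4 (2.89), Ehhadh (2.38) and Acadm (2.16).

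Genes of brown fat were divided. Ucp1, the uncoupling protein that defines thermogenic fat, was not above background on either array. The thyroid hormone deiodinase Dio2 went from 29 to 1835, a difference of 5.83 ± 0.23, Cidea was at least 14.1-fold higher, and the coactivator Ppargc1a at least 6.49-fold. Prdm16 was at -0.29 and Zic1 at -0.26. The respiratory chain as a whole lay close to the median of all genes, with 1 of 46 higher, 2 lower and a median of -0.27, which was 0.16 under quantile normalization. The lower ones were cytochrome c, Cycs (-1.37), and a tissue-specific subunit of cytochrome oxidase. Cox6a2, the heart and muscle form, went from 915 to 36.1, a difference of -4.81 ± 0.23. Cox4i2, a form known from lung and from low oxygen, went from 76 to 418, a difference of 2.31 ± 0.21, and Cox8b was at least 112-fold higher, while Cox4i1 (-0.49), Cox6a1 (-0.26) and Cox8a (-0.03) stayed within 2-fold.

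**Figure D3:**
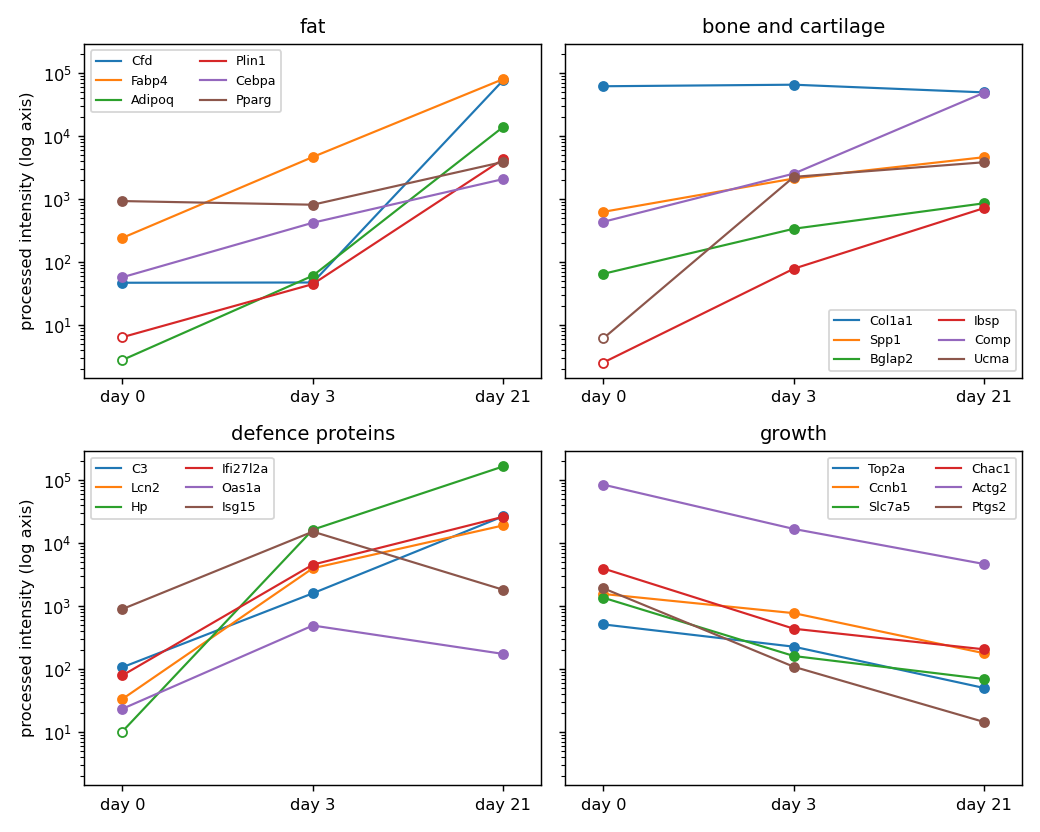
Unscaled probe intensity (log axis) of 24 genes at day 0, 3 and 21, 1 array each; filled points are well above background and open points are not. Cfd is level until day 3 and far higher at day 21, Col1a1 is near level, and Isg15 and Oas1a are highest at day 3.

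Another set of genes belonged to cartilage and tendon. Cartilage oligomeric matrix protein, Comp, went from 434 to 48888, a difference of 6.67 ± 0.20, lubricin, Prg4, which lubricates joint surfaces, went from 20.4 to 1611, a difference of 6.16 ± 0.28, and matrilin Matn4 went from 32 to 8737, a difference of 7.94 ± 0.24. Collagen IX chain Col9a2 differed by 6.13, and Col9a1 was at least 93.4-fold, Col11a2 at least 16.7-fold and Cytl1 at least 652-fold higher. In this list 8 of 13 measured genes were higher, 1 was lower and 10 rose by a bound. Several other genes of hyaline cartilage did not follow. Col2a1 differed by -0.32 at intensities of 11455 and 10171, aggrecan Acan by -0.97, and Sox5 and Sox6 were not above background. The hypertrophy collagen Col10a1 was lower (-1.27).

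Small leucine-rich proteoglycans, which bind collagen fibrils and set their width, were higher in 9 of 13 measured cases and lower in 1, with a median of 2.03. Lumican, Lum, went from 405 to 20302, a difference of 5.50 ± 0.20. Mimecan, Ogn, went from 1905 to 54391, a difference of 4.69 ± 0.20, epiphycan Epyc differed by 4.86 and Podn by 3.30. The lower member was Optc (-3.70), known from the eye.

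Among 25 measured collagen chains 8 were higher and 4 lower, and 5 more rose by a bound. The network collagens Col6a1 (2.34) and Col6a2 (3.12), the fibril-associated Col14a1 (6.82, other probe 3.72), the transmembrane Col23a1 (4.04) and the fibrillar Col3a1 (1.79) were higher. Col7a1, of anchoring fibrils, was lower (-2.69), and Col5a1 (-0.94) and Col5a2 (-0.87) were within 2-fold. The enzymes that process collagen were lower in 5 of 27 cases and higher in 1, with a median of -0.32. Over all measured genes 16.8% were lower and 12.8% higher, so the share of lower enzymes was near the general one. Lysyl oxidase-like Loxl2 went from 20124 to 2818, a difference of -2.98 ± 0.20 with Lox at 0.39, and lysyl hydroxylase Plod2 was at -2.0 with Plod1 at -0.24. The higher one was the procollagen peptidase Adamts2 (3.87).

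Other matrix proteins were rearranged within families. Of the matricellular CCN proteins, Ccn3 went from 30.9 to 2816, a difference of 6.36 ± 0.23, while Ccn1 (-1.73), Ccn2 (-1.84) and Ccn4 (-2.70) were lower. Fibulins were higher for Fbln1 (2.82) and Fbln7 (3.15) and lower for Fbln2 (-1.77) and Fbln5 (-1.30). Tenascin C, Tnc, a protein of wounds and growing tissue, was lower (-3.21), and tenascin X, Tnxb, was higher (1.77). Integrin subunits were lower in 7 of 16 and higher in 4, with the fibronectin receptor chain Itga5 at -3.00, and 4 were lower under normexp background correction. The urokinase receptor Plaur went from 4445 to 194, a difference of -4.67 ± 0.21. The collagenase Mmp13 was at least 52.4-fold and Timp4 at least 201-fold higher, and Timp1 (-0.48) and Timp2 (0.07) stayed within 2-fold.

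Secreted defence proteins were far higher at day 21. Complement proteins form a plasma cascade that tags and lyses microbes, and acute-phase proteins are made chiefly by liver under inflammation. Complement C3, the hub of the cascade, went from 107 to 26777, a difference of 7.82 ± 0.21. Its other probe gave 10.37, so the size of the rise depends on the probe. Clusterin, Clu, a chaperone that also inhibits the terminal complex, went from 428 to 62926, a difference of 7.05 ± 0.20. The classical pathway proteases C1ra (4.13) and C1s1 (5.29) were higher too, and factor B, Cfb, was at least 299-fold higher. In all, 13 of 20 measured complement genes were higher and 1 was lower, with a median of 2.80. The members made by myeloid cells were not: C1qa and C1qc were not above background, C1qb was at 0.18 and properdin Cfp at -0.58. The lower one was the C1q-related C1qtnf3 (-2.78).

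Haptoglobin, Hp, which binds free haemoglobin, had intensities of 10.2 at day 0, 16415 at day 3 and 166113 at day 21, and its bound was the largest of all genes. Apolipoprotein D, Apod, a lipocalin, went from 738 to 199609, a difference of 7.93 ± 0.20. The copper ferroxidase ceruloplasmin, Cp, went from 96 to 7139, a difference of 6.07 ± 0.21. Of the acute-phase and lipocalin list 6 of 9 measured members were higher and 0 lower, and 11 more rose by a bound. These included serum amyloid Saa3 (at least 62.6-fold), the protease inhibitor Serpina3n (at least 276-fold) and the orosomucoids Orm1 (at least 37.9-fold) and Orm2 (at least 55.7-fold). Orm1, Orm2 and Orm3 are close copies, as are the Serpina3 genes, and their single values are uncertain.

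C/EBP factors are known activators of acute-phase genes. The core TTGCNNAA, searched on both strands of RefSeq promoters (build GRCm38.p6, 250 bases before to 50 after each start), was present in 10.8% of all promoters and in 63.6% of the 22 promoters of this list, 14 of them. The 150 bases before the start are printed below for Saa3 (chr7:46715677-46715826, minus strand) and Orm2 (chr4:63362299-63362448, plus strand), 2 switched-on genes with a match on either strand, in capitals.
Saa3: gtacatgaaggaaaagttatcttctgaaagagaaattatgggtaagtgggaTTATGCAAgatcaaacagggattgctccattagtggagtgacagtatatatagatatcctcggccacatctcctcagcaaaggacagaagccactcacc
Orm2: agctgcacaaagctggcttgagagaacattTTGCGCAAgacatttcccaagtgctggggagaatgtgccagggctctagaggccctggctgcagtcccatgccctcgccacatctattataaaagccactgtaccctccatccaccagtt
A match is a run of letters and no evidence of binding.

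Interferon-stimulated genes, which curb viruses, were higher in 23 of 32 measured cases and lower in 1, with a median of 1.46. Ifi27l2a, a small mitochondrial and nuclear membrane protein, went from 79.6 to 26319, a difference of 8.22 ± 0.21. The closely related Ifi27l2b had intensities of 489.6 and 6.67, the latter below background, a fall of at least 65.8-fold. The membrane protein Ifitm1 went from 116 to 4893, a difference of 5.25 ± 0.21. The immunity GTPase Igtp (3.29), Parp14 (3.76) and Trim30a (3.11) were higher. The lower member was Irgm1 (-1.50). Isg15 stood at 899.8, 15296 and 1821 at day 0, 3 and 21, within 2-fold of its start at day 21 (0.87), and Usp18 at 60.6, 730.1 and 103 (0.61).

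Genes of MHC class I presentation, in a list that also holds class II genes, were higher in 11 of 18 cases with 0 lower, and their median was 1.86. The immunoproteasome subunit Psmb9 went from 30.8 to 557, a difference of 4.03 ± 0.23, Psmb8 differed by 2.81 and Psmb10 by 0.44. The classical heavy chain H2-K1 was at 2.66 and the transporter Tap1 at 1.42, whereas the shared light chain B2m, already bright, was at 0.30. The lipid-presenting Cd1d1 was at 4.06. The class II genes Cd74 and H2-Aa were not above background, and H2-Ab1 was at -0.34. H2 heavy chains resemble each other closely, so their single values are uncertain.

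Macrophages also make complement, acute-phase and class I proteins, so their markers are set beside these groups. Over all 20279 named genes 6289 were dim on both arrays, and the counts of dim markers stand beside that. Of 22 macrophage markers with a probe, 13 were not above background on either array, among them Ptprc, Adgre1, Tyrobp, Spi1 and Mrc1. The 7 measured ones had a median difference of 0.53, and 3 were higher. These were the endotoxin co-receptor Cd14 (2.22) and the lysozymes Lyz1 (1.18) and Lyz2 (1.55), which are near-identical copies. Aif1 was above background at day 21 only and Msr1 at day 0 only. The receptor Csf1r was at -0.02. Of granulocyte and mast cell markers 9 of 17 were dim on both arrays, Mpo, Ltf and Kit among them. The 4 measured ones had a median difference of 0.37, which was -0.33 without the dimmest of 4 equal bins of genes. The antimicrobial peptide Camp (2.63) and the mast cell tryptase Tpsb2 (1.07) were higher, S100a8 rose at least 6.41-fold and its partner S100a9 fell at least 6.09-fold. Also dim on both arrays were, of lymphocyte markers 10 of 14 and of erythroid and megakaryocyte markers 8 of 12. The part of such cells in the complement, acute-phase and presentation results was not tested.

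Chemokines and cytokines moved both ways. Of 14 measured chemokines 6 were higher and 3 lower, with 2 higher under normexp background correction. The niche chemokine Cxcl12, which holds blood stem cells in marrow, went from 11161 to 61199.7, a difference of 2.31 ± 0.20, with 3.44 by its other probe. Ccl2, which recruits monocytes, went from 5248 to 757, a difference of -2.94 ± 0.06. Cxcl5 was at least 117-fold and the B cell chemokine Cxcl13 at least 56.3-fold higher. Of the cytokine and receptor list 10 of 22 measured genes rose and 6 fell. In the interleukin-6 family the ligands Il6 (-3.61), Il11 (-2.25) and Clcf1 (-2.56) were lower, and the receptors Il6ra (3.08), Il11ra1 (2.30), Lifr (4.65), Osmr (2.07) and Il6st (1.53) were higher. The feedback inhibitor Socs3 was at 2.36. The alarmin Il33 was at least 48.2-fold and the decoy receptor Il1r2 at least 45.8-fold higher.

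Of 13 measured prostaglandin genes 2 rose and 3 fell, near the shares over all measured genes (12.8% and 16.8%). Of the 24 with a probe, 6 more were higher by a bound, against 2.81% of all named genes. Phospholipase Pla2g4a, which frees arachidonic acid, went from 3316 to 247, a difference of -3.89 ± 0.20. The inducible cyclooxygenase Ptgs2 went from 1925 to 14.5, a difference of -7.20 ± 0.10, and the constitutive Ptgs1 was lower too (-1.43). Prostaglandin D synthase Ptgds was at least 147-fold higher, the degrading enzyme Hpgd at least 13.4-fold, and the receptors Ptger3 and Ptgfr at least 25.9-fold and 26.6-fold.

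Glucocorticoid-responsive genes, known targets of the stress hormone receptor in many cells, were higher in 14 of 16 measured cases with 1 lower, and 2 more rose by a bound. Their median was 2.86, against -0.21 over all measured genes. The receptor chaperone Fkbp5 went from 433 to 8755, a difference of 4.19 ± 0.20. Tsc22d3, also called GILZ, went from 1347 to 31906, a difference of 4.42 ± 0.20, and the zinc finger gene Zbtb16, also called PLZF, was at least 333-fold higher at intensities of 10.5 and 3883. The enzyme Hsd11b1, which regenerates active hormone, was at 3.96, Klf9 at 2.33 and Per1 at 1.81. The receptor itself, Nr3c1, was at -0.07, and the phosphatase Dusp1 was the lower one (-1.61). The labels' culture protocol names no glucocorticoid. Several members belong to other lists here, such as Cebpd, Pdk4, Angptl4 and the metallothioneins Mt1 (2.50) and Mt2 (4.29).

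Enzymes that process foreign chemicals and steroids, best known from liver, were higher in 23 of 30 measured cases with 0 lower (median 2.18). Another 11 rose by a bound. Alcohol dehydrogenase Adh1 went from 85.5 to 11169.8, a difference of 6.88 ± 0.21, guanine deaminase Gda went from 20.5 to 3009.5, a difference of 7.05 ± 0.27 and xanthine dehydrogenase Xdh went from 27 to 1625, a difference of 5.76 ± 0.23. The flavin monooxygenases Fmo1 and Fmo2 were at least 1079-fold and 367-fold higher, and the cytochromes Cyp2f2 and Cyp2e1 at least 969-fold and 147-fold. Electron donor Por, which serves these cytochromes, was at -0.19.

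The NRF2 and glutathione list moved both ways, with 14 of 34 measured genes higher and 4 lower. Which members depend on NRF2 in these cells was not tested. The higher genes were mostly glutathione transferases, with Gsta3 going from 77.9 to 13633, a difference of 7.30 ± 0.21, Gstt1 at 4.38, Mgst1 at 3.62, Mgst2 at 4.18 and Gstm1 at 2.25, though Gstp1 was at -0.07. Nqo1 (-2.68), Txnrd1 (-2.51), Gclm (-1.18) and Txn1 (-1.49), known NRF2 targets, were lower, and the NRF2 gene itself, Nfe2l2, was at -0.34. The cystine importer Slc7a11, another target, was at least 3.76-fold lower. The secreted antioxidants Gpx3 (4.49), Sod3 (3.71) and selenoprotein P, Selenop (6.45), were higher. In the retinoid list 11 of 20 were higher, including chemerin, Rarres2 (7.40), and the retinaldehyde dehydrogenase Aldh1a1 (3.86), and the binding protein Crabp1 was lower (-2.49).

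Genes of cell division were lower almost without exception. Of 34 measured mitosis and kinetochore genes 32 were lower and 0 higher, with a median of -3.22, and 7 more fell by a bound. The ubiquitin ligase partner Ube2c, which ends mitosis, went from 3133 to 244, a difference of -3.83 ± 0.20. Cdc20, its activator in the same complex, went from 5521 to 515, a difference of -3.57 ± 0.20, and topoisomerase Top2a went from 514 to 50.2, a difference of -3.50 ± 0.22. Mybl2, which switches on mitotic genes, was at -4.01 and Foxm1 at -2.75. The members within 2-fold were the phosphatase Cdc25b (-0.86) and securin Pttg1 (0.43), whose other probe gave -1.05. The checkpoint kinase Bub1 went from 225 to 6.94, below background, at least 30.3-fold lower.

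Mitotic promoters are known to carry the CHR element and CCAAT boxes, bound by the DREAM complex and NF-Y. With both strands searched in the same windows, TTTGAA (CHR) was in 73% of the 37 promoters of this list and 17.9% of all 32851 promoters. CCAAT was in 75.7% and 37.4%, and both together in 64.9% and 6.95%. The 150 bases before the start of 3 lowered genes that hold both are shown for Ube2c (chr2:164769779-164769928, plus strand), Cdc20 (chr4:118437344-118437493, minus strand) and Top2a (chr11:99024190-99024339, minus strand), with both motifs in capitals in either orientation.
Ube2c: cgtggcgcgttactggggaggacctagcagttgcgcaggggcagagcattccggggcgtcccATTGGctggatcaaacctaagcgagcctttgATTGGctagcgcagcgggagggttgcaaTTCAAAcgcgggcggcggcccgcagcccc
Cdc20: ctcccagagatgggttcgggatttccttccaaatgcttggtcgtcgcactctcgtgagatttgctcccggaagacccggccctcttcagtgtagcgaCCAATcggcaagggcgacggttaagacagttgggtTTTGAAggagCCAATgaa
Top2a: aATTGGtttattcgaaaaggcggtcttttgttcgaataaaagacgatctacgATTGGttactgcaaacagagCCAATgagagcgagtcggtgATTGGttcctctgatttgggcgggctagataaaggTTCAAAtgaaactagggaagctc
In each of them the CHR lies close to the start and at least 1 CCAAT box lies upstream of it. Over all measured genes at least 4-fold lower at day 21, the CHR was in 21.4% of promoters, against 14% of those at least 4-fold higher and 11.6% within 2-fold.

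DNA replication genes fell in 37 of 48 measured cases and rose in 0, and their median of -1.50 was smaller in size than that of the mitosis genes. The helicase subunits spanned -3.04 (Mcm5) to -1.13 (Mcm7), thymidine kinase Tk1 was at -3.64 and Uhrf1, which maintains DNA methylation, at -3.76. The sliding clamp Pcna (-0.80) and Rrm1 (-0.48) stayed within 2-fold. Cell cycle brakes and D-type cyclins moved both ways, with 4 of 17 higher, 2 lower and a median of 0.03. The shares over all measured genes were 12.8% higher and 16.8% lower. The brakes Cdkn1c (3.03), Cdkn2c (2.55), Cdkn2a (1.82) and the pocket protein Rbl2 (1.88) were higher. Its relative Rbl1 (-1.47) and the kinase Cdk4 (-1.42) were lower, and Cdk6 fell at least 2.11-fold by its bound. Cdkn1a was at -0.38 by the probe used and -1.53 by the other. Growth-associated fetal genes were lower too, Hmga2 going from 1974 to 111, a difference of -4.30 ± 0.21 and Igf2bp1 being at -2.51.

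Genes that supply amino acids for protein synthesis were lower across several steps. All cytosolic aminoacyl-tRNA synthetases of the list (20) were measured, 15 were lower and 0 higher, with a median of -1.44 and a range from -2.37 (Cars) to 0.37 (Dars). These enzymes charge each tRNA with its amino acid. Glycyl-tRNA synthetase Gars went from 61249.9 to 15046, a difference of -2.17 ± 0.20. ATF4 is the factor that induces such genes when amino acids run short or the endoplasmic reticulum is stressed. In the list of its response genes 19 of 27 were lower and 2 higher (median -1.79), and 2 more fell by a bound. Asparagine synthetase Asns went from 29953 to 4764, a difference of -2.80 ± 0.20, the glutathione-degrading enzyme Chac1 went from 3969 to 206, a difference of -4.41 ± 0.20 and the pseudokinase Trib3 went from 5616 to 426, a difference of -3.87 ± 0.20. The higher members were Ddit4 (1.5) and Cebpb (1.03), which other signals induce as well. Atf4 itself was at -1.24.

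The composite element TGATGNAA, at which ATF4 pairs with C/EBP proteins, was in 5 of 13 synthetase promoters (38.5%), 34.5% of the 29 promoters of the ATF4 list and 3.97% of all promoters. The 150 bases before the start are shown for 2 lowered genes that hold it, Asns (chr6:7693210-7693359, minus strand) and Gars (chr6:55037851-55038000, plus strand), with the element in capitals.
Asns: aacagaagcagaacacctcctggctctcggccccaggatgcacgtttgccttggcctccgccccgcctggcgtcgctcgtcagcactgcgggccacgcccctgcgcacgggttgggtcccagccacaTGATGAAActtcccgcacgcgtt
Gars: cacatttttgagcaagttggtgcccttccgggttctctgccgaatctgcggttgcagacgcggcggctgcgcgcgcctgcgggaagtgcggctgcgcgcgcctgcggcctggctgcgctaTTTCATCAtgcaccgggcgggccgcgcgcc
The element stands in opposite orientations in the 2 promoters.

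Serine and folate enzymes were lower in 11 of 20 measured cases and higher in 3. The serine pathway enzymes Phgdh (-2.47), Psat1 (-2.73) and Psph (-2.91) and the mitochondrial folate enzymes Shmt2 (-2.51), Mthfd2 (-3.04) and Mthfd1l (-3.17) were lower. Mitochondrial 10-formyltetrahydrofolate dehydrogenase, Aldh1l2, went from 767 to 67.9, a difference of -3.65 ± 0.21. Its cytosolic relative Aldh1l1 went from 98.1 to 14024, a difference of 7.01 ± 0.21, the opposite direction. Cystathionine beta-synthase, Cbs (4.40), and glycine decarboxylase, Gldc (4.29), were the other higher members.

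Amino acid transporters were exchanged, with 6 of 22 higher and 7 lower. The light chain of the main leucine exchanger, Slc7a5, went from 1363 to 69.7, a difference of -4.44 ± 0.21, and its other probe gave -2.21. Its relative Slc7a8 went from 14.7 to 354, a difference of 4.44 ± 0.10. Of the cationic amino acid transporters Slc7a3 went from 819.6 to 12.3, a difference of -6.21 ± 0.33 and Slc7a1 was at -2.96, whereas Slc7a2 was at 4.15. The glutamate importer Slc1a3 was higher by 5.77 and the glutamine transporter Slc1a5 by 3.59.

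Cytosolic ribosomal protein genes fell 2-fold in 19 of 45 cases and rose in 0, with a median of -0.94 and a narrow range from -1.42 (Rpl22, other probe -0.35) to -0.48 (Rps14). Their probes are bright, and the count rests on the scaling: 39 were 2-fold lower with spike-in scaling and 0 with quantile normalization, where the median was -0.16. Chaperones of the endoplasmic reticulum were lower in 8 of 27, with 0 higher and a median of -0.63, led by Pdia5 (-2.10) and Hyou1 (-1.76). The count of lower ones was 13 with spike-in scaling and 5 with quantile normalization. Lysosome and V-ATPase genes hardly moved, 1 of 35 being higher, cathepsin Ctsf (1.78), and 0 lower. Of glycolysis and hypoxia genes 12 of 34 were lower and 5 higher, with the lactate exporter Slc16a3 at -3.43, Vegfa at -2.13 (-0.99 by its other probe) and enolase Eno1 at -1.76 against Ldhb at 1.65.

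The contractile apparatus was lower. Of 28 measured smooth muscle genes 19 were lower and 1 higher, with a median of -2.0. Smooth muscle alpha actin, Acta2, the stress fibre actin of activated fibroblasts, went from 241432 to 56627, a difference of -2.24 ± 0.06. Transgelin, Tagln, went from 253124 to 47939, a difference of -2.55 ± 0.20 and calponin Cnn1 went from 60296 to 4614, a difference of -3.86 ± 0.20. The transcription factor Srf, which drives these genes, was at -2.01. Caldesmon Cald1 (-0.62), smoothelin Smtn (-0.22) and calponin 3, Cnn3 (-0.23), stayed within 2-fold, and the higher member was the collagen-binding integrin chain Itga1 (1.48).

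Targets of YAP and TEAD, which sense tension and spreading, were lower in 17 of 31 cases and higher in 1 (median -1.16). Ankrd1 went from 4360.1 to 314, a difference of -3.94 ± 0.20, Ajuba was at -2.24 and Amotl1 at -2.14. The higher one was Igfbp3, from 36.6 to 3154, a difference of 6.28 ± 0.23, and the factors Yap1 (-0.21) and Wwtr1 (-0.41) stayed within 2-fold. Immediate early genes were lower in 14 of 21 with 0 higher, led by Egr2 (-3.04), Maff (-2.99) and Fosl1 (-2.98), while Jund (-0.28) and Nr4a1 (0.17) were within 2-fold. Feedback genes of the ERK pathway were lower in 9 of 16. The higher one was Errfi1, an inhibitor of the EGF receptor (3.48). The EGF receptor ligand Hbegf went from 3409 to 163, a difference of -4.53 ± 0.20 and Ereg was at -2.16.

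**Figure D4:**
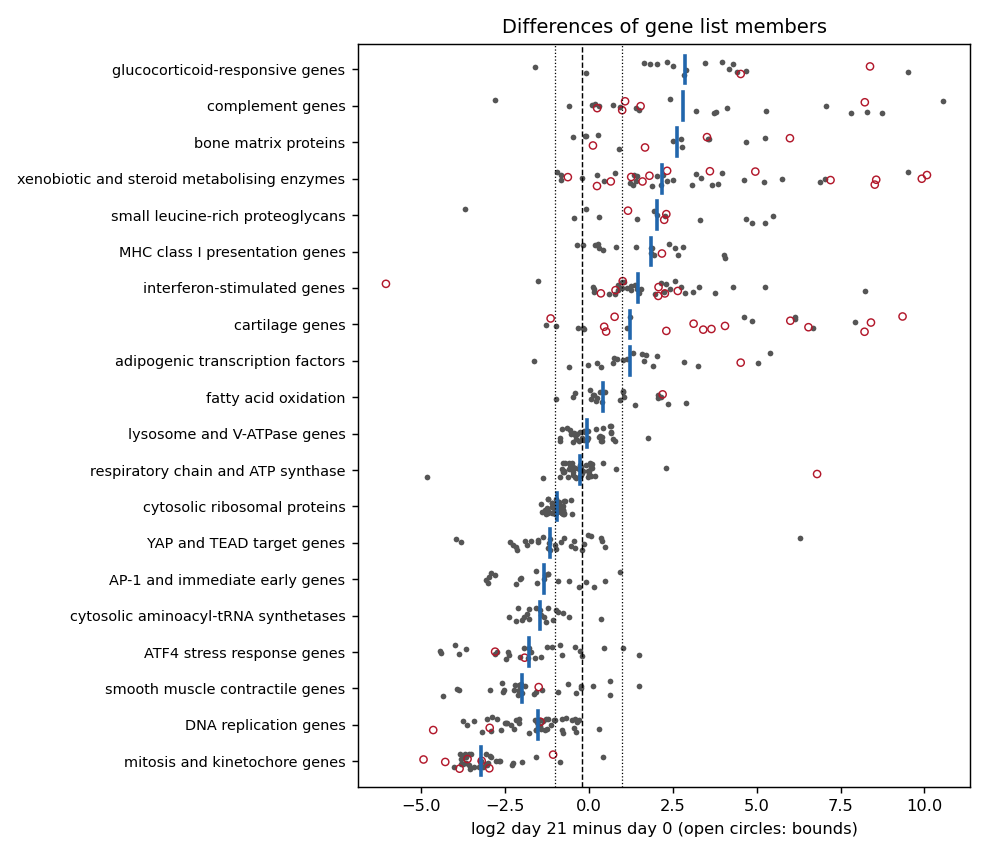
Log2 difference, day 21 minus day 0, of each member of 20 gene lists; grey points are measured genes, open red circles are bounds, blue bars are list medians over measured members, the dashed line is the median of all measured genes (-0.21) and dotted lines mark 2-fold. Mitosis genes have the lowest median (-3.22) of the lists drawn and glucocorticoid-responsive genes the highest (2.86), and ribosomal protein genes lie in a narrow band.

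In Wnt signalling, which favours bone, several secreted binders of the ligands were higher, 4 of 8 measured ones against 0 lower. Sfrp1 went from 107 to 9918, a difference of 6.39 ± 0.21, and Sfrp2 was at least 2161-fold, Frzb at least 13.7-fold and Sostdc1 at least 7.73-fold higher, while Dkk1 was at least 5.91-fold lower. Sclerostin, Sost, was not above background. Among Wnt ligands and receptors 10 of 27 measured genes rose and 4 fell, beside 12.8% and 16.8% of all measured genes. The R-spondin receptor Lgr5 went from 16.4 to 837, a difference of 5.53 ± 0.32, its ligand Rspo1 was at 5.30, and the receptors Fzd9 (5.01) and Fzd4 (4.66) were higher, whereas Fzd6 (-2.24), Lgr4 (-1.45) and Fzd3 (-1.09) were lower. Nuclear effectors and feedback targets mostly stayed within 2-fold, 9 of 11 beside 70.5% of all measured genes, with a median of 0.75. The feedback inhibitor Nkd1 was higher (2.25), Myc, a target shared with other pathways, was lower (-1.58), and the effector Lef1 was at least 16.2-fold lower. Beta-catenin, Ctnnb1, was at 0.12, and Axin2 was not above background on either array.

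Growth factor systems changed in part, and their counts stand beside 12.8% higher and 16.8% lower over all measured genes. For IGF signalling, 5 of 14 measured genes rose and 5 fell. Igf2 was at least 75.2-fold higher, Igf1 was at 0.76, and the binding proteins Igfbp5 (4.02), Igfbp4 (3.77) and Igfbp6 (2.61) were higher with Igfbp7 at least 4.03-fold lower. The receptors Igf1r (-1.14) and Igf2r (-1.22) were lower. In the TGF-beta and activin list 5 of 26 measured genes rose and 9 fell. Activin A subunit Inhba went from 13802 to 1346, a difference of -3.51 ± 0.20, Tgfb2 was at -1.52, and the inhibitory Smad7 was at -2.45, while the receptors Tgfbr3 (4.98) and Tgfbr2 (2.64) were higher. The TGF-beta-induced matrix protein Tgfbi was at -3.61. Of the BMP list 7 of 28 measured genes rose and 6 fell, the other 15 staying within 2-fold. The ligands Gdf10 (5.07), Bmp6 (2.47) and Bmp7 (2.29) and the activin antagonist Fst (2.05) were higher. The receptor Bmpr1b (-3.70), the antagonist Grem1 (-2.27) and the inhibitory Smad6 (-1.42) were lower. The antagonist Chrdl1 was at least 199-fold higher, and the target Id1 stayed at -0.28. In the Hedgehog list 2 of 8 measured genes rose and 0 fell, and Gli1 and Hhip were at least 5.33-fold and 13.9-fold higher.

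Of 19 measured peptide hormones and growth peptides 11 were lower and 4 higher, with a median of -1.90. By a bound 3 more fell and 3 more rose at least 2-fold, and with all bounds included the median was -0.65. The natriuretic peptide Nppb went from 684 to 13.5, a difference of -5.80 ± 0.32 and cholecystokinin, Cck, went from 953 to 31.2, a difference of -5.08 ± 0.22. The neurotrophic factors Bdnf (-2.60) and Gdnf (-3.11) were lower. Proenkephalin, Penk, went from 35 to 2104, a difference of 5.76 ± 0.23 and neuromedin B, Nmb, was at 4.19.

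Markers of marrow stroma and blood cell support shifted. Among haematopoietic niche factors 11 of 18 were higher and 2 lower. Angiopoietin Angpt1, which keeps blood stem cells quiet, went from 33.2 to 1606, a difference of 5.45 ± 0.23, stem cell factor Kitl was at 1.81 and pleiotrophin Ptn at 2.70. Interleukin 7, Il7, was lower (-1.66). Lepr, a marker of adult marrow stroma, was at -0.26 and Vcam1 at 0.89. Among stromal progenitor surface markers 7 of 26 measured genes rose and 7 fell, beside 12.8% and 16.8% of all measured genes. Pdgfra (5.12), Ly6a (3.20), Cd34 (5.05) and Pi16 (5.31) were higher. Nestin, Nes, went from 2839 to 145, a difference of -4.44 ± 0.20, and Mcam (-1.55), Cspg4 (-2.77) and Cd44 (-2.62) were lower, whereas Thy1 (0.43), Eng (-0.28) and Nt5e (0.48), used to define MSCs, stayed within 2-fold. Hox genes were dim on both arrays in 18 of 39 cases, beside 6289 of all 20279 named genes. Of 17 measured Hox genes 6 were lower, with Hoxb5 at -2.78, and 1 was higher.

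Neighbouring genes moved together at several loci. In the gene order of the reference table, among genes with a probe, 21 runs of at least 3 neighbours were all at least 4-fold higher, bounds included, and 4 runs all at least 4-fold lower. The longest held 4 genes each. The proteoglycans Dcn (2.26), Lum (5.50), Kera (at least 4.75-fold) and Epyc (4.86) formed one, and the complement proteases C1ra (4.13), C1s1 (5.29), C1rb (3.8) and C1s2 (5.29) another. The interferon-inducible Ifi207 (at least 68.3-fold), Ifi204 (5.06), Mndal (2.12) and Ifi211 (4.29) made up the last of the higher ones. The skin envelope genes Lce1f, Lce1g, Lce1h and Lce1i were at least 15.8-fold, 33.5-fold, 50.5-fold and 122-fold lower. A shorter run held the bone genes Ibsp, Mepe and Spp1, described above. The C1r, C1s, Ifi200-type and Lce genes are similar copies, so that cross-hybridisation between them was not tested.

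Probes of a gene mostly gave like values. For 3050 genes with 2 or more probes above background on both arrays, the median range of a gene's differences was 0.24, 282 genes (9.25%) ranged by at least 1, and 1 gene had probes at least 2-fold apart from 0 in opposite directions. The widest range was that of Gas1, a growth arrest protein, from 1.80 to 6.51. The hypoxia factor Epas1 ran from -0.30 to 4.39 and tropomyosin Tpm1, a gene with many isoforms, from -4.04 to 0.26. For Col14a1, named above, the probes gave 3.72 and 6.82, and for Scd3 and the enzyme Fmo5 they ran from -0.14 to 3.01 and from 0.71 to 3.68.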

How the data were processed

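RNA from mouse MSC cultures at day 0, 3 and 21 was hybridised to 1-colour Agilent arrays, 1 array per day, and the day 0 and day 21 arrays were compared. The deposited scanner files hold probe intensity, background-subtracted by the authors' Feature Extraction run (10.10.1.1 per the file headers, 12.0 per the submitters' processing notes); the value table equals it, with a largest relative difference of 0. Here log2 intensity was taken relative to each array's 75th percentile over non-control spots, with 17 outlier-marked probes left out. Probes were named by accession through the RefSeq table of GRCm38.p6 (26755 named, 28909 not). The probe with the highest mean signal over the arrays stood for a gene, and where the probes of a measured gene named in the text ranged by at least 1, the other probe's value or the range is given. A bound sets the bright array's level against the lowest signal marked well above background on the other, or the dim probe's own if higher. The gene lists (80), the members and the named genes were chosen with earlier results of these data known; named are list members, the 30 most raised and lowered genes, the 20 largest bounds each way, genes with discordant probes and members of runs. No p-value was computed, since each group has 1 array. Alternatives covered scaling, normexp background (limma 3.58.1, R 4.3.3, offset 50, on median signals), dim-probe filters, outlier spots and the probe chosen; Python 3.11.15 did the rest.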

Additional observations from a re-analysis of the deposited data

Results flagged for a closer look

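The array also held probes that no accession of the reference table names, which the comparisons above do not use. Of these, 7744 were well above background on both arrays, and 547 of them rose 2-fold or more by day 21 and 1565 fell as much (7.06% and 20.2%). Their median difference was -0.30. A further 1245 were above background at day 21 only and 934 at day 0 only.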

How the results depend on the processing

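With 1 array per group nothing here has a replicate check. No paired analysis was possible because each group holds 1 array and no result comes from a test. The counts of higher genes ran from 1141 (normexp background correction) to 2173 (a looser detection mark) and those of lower genes from 1407 (normexp) to 3086 (spike-in scaling). Scaling moved the median of all measured genes by 0.16 with the 75th percentile of detected probes and by -0.25 with spike-ins, and the share of higher genes among the calls to 53.4% and 29.1%. Under normexp 237 genes were switched on and 77 off by at least 2-fold; the cause was not tested here or for the results below. Of 719 list medians compared with their main value, 11 changed sign. These were, by the median over a gene's probes, the osteoclast coupling (0.15) and iron handling (-0.038) lists. Under quantile normalization they were the plasminogen (0.44) and respiratory chain (0.16) lists, and with spike-in scaling the BMP list (-0.034). Without the dimmest of 4 equal bins of genes they were the plasminogen (0.15), semaphorin (-0.18), chemokine (-0.46) and granulocyte and mast cell (-0.33) lists. With the looser detection mark they were the prostaglandin (0.20) and erythroid and megakaryocyte (0.34) lists. Of 339 named and measured genes compared in this way, 270 were past 2-fold, 28 of them fell inside it under an alternative, and Csf1 changed sign (0.56, median over its probes). The 28 included, under normexp, Enpp3 (-0.35), Acsl3 (-0.44), Il7 (-0.50), Lgr4 (-0.51), Lyz2 (0.62), Lyz1 (0.68) and Tap1 (0.77). Under quantile normalization they included Atf4 (-0.64). Adding probes named by the array design was not run, since the files used here pair no such names. Low signal limits the genes with bounds.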
